A study of Homo sapiens with 15 samples.

Results

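The imprinted DLK1-DIO3 locus on human chromosome 14q32 was described through 6 genes, the maternally expressed long non-coding RNAs MEG3, MEG8 and MEG9 and the paternally expressed protein-coding genes DLK1, RTL1 and DIO3. They were found by symbol in both tables of gene values, as 5 of the 17769 genes of the knockout table, which does not list DIO3, and as 6 of the 60510 genes of the resistance table. The locus was chosen by the values of HSP90β-KO against EV, where MEG3 stood out, and the other members by their place in it. All member values of that contrast are therefore given without a test, whereas HSP90α-KO against EV and PUHr against parental cells were tested. The HSP90α-KO test is not separate from that contrast. It uses the same EV libraries, and its standard errors also draw on the HSP90β-KO libraries.

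RNA-seq libraries came from K562, a BCR-ABL1+ chronic myeloid leukemia line, in 5 groups of 3. In the knockout table, EV cells (empty vector, genotype given as WT) served as control for HSP90α-KO and HSP90β-KO cells, which lack an isoform of the cytosolic chaperone HSP90. The labels state that these K562 cells were transduced by lentivirus with CAS9 and a guide RNA, sorted by a fluorescent marker and selected as single clones, so loss of an isoform and the choice of clone cannot be told apart. In the resistance table, PUHr cells (genotype given as WT in the labels) had been kept for a long time under rising amounts of the HSP90 inhibitor PU-H71 (PUH71 in the labels) and picked as clones, and parental cells had been kept in DMSO in parallel. By the study's genotyping, PUHr cells also carry a gain of a stretch of 14q32 that holds HSP90AA1 and a missense mutation of HSP90AA1, so they are not wild type throughout. Copy number and mutations were not analysed here, and more copies and more RNA per copy cannot be told apart for genes of 14q32 in PUHr. For HSP90β-KO, the study's array genotyping is described as showing no alteration at HSP90AA1, and the rest of 14q32 is not described there. The study calls the replicates independent, but neither it nor the labels say whether they are separate cultures, so p-values measure only the spread between these samples.

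Imprinted genes are read from the maternal or the paternal copy alone. In this locus, a control region between DLK1 and MEG3 is methylated on the paternal copy, where DLK1, RTL1 and DIO3 are active, and unmethylated on the maternal copy, which makes MEG3, MEG8, MEG9 and a long run of small nucleolar RNAs and microRNAs. MEG3 is known as a growth-restraining RNA that can raise p53 activity, and its promoter is a known target of methylation in myeloid malignancies. DLK1 is a membrane protein of the EGF repeat family that is related to the NOTCH ligands and is found on fetal and progenitor cells. RTL1 derives from a retrotransposon and is needed in placenta, and DIO3 is the deiodinase that inactivates thyroid hormone. In bulk RNA, fewer cells that make a transcript and less transcript per cell cannot be told apart.

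Each library held between 19594381 and 26216730 reads on genes. Levels are given as reads and as CPM, reads scaled to a common library size, in which 1 read was worth between 0.0381 and 0.0518 CPM. Of 16 K562 markers, 15 were above 3 reads in every library, and the embryonic globin HBE1 was the exception, not listed in the knockout table and at 3 reads or fewer in some resistance libraries. HSP90AA1, the gene of HSP90α, was at 704 ± 18.7 CPM in EV and 90.4 ± 2.34 CPM in HSP90α-KO (mean ± SD over 3 libraries), and HSP90AB1, the gene of HSP90β, was at 1913 ± 25.1 CPM in HSP90β-KO and 2806 ± 21.1 CPM in EV. RNA of both targeted genes was thus still counted in its knockout. In the resistance table HSP90AA1 was at 1712 ± 14.1 CPM in parental cells and 1568 ± 21.0 CPM in PUHr, a log2 fold change of -0.13 (limma adjusted p = 4.7e-05). Of 7 markers of placenta, liver and neuroendocrine cells, which also make much DLK1, 5 (CGA, CGB3, PAGE4, APOA1 and CHGA) are not listed in the knockout table and were at 3 reads or fewer in every resistance library. The summed level of the list was 0.998 to 1.11 CPM in EV, 1.51 to 2.36 in HSP90α-KO, 0.0954 to 0.341 in HSP90β-KO, 1.27 to 1.80 in parental cells and 0.321 to 0.460 in PUHr. In the knockout table this sum rests on the 2 genes listed there, and the part of such cells in the DLK1 values was not tested. HSP90AA1 lies on the same chromosome arm, 1219710 bases beyond the end of MEG3.

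All 6 genes lie on chromosome 14 of GRCh38, in the GENCODE v44 annotation, within 837748 bases from the start of DLK1 to the end of DIO3. DLK1 (ENSG00000185559, plus strand) spans chr14:100725705-100738224. MEG3 (ENSG00000214548, plus strand) begins 41185 bases further on and spans chr14:100779410-100861031. RTL1 (ENSG00000254656) lies on the minus strand at chr14:100879753-100903722, 18721 bases past MEG3, and 8953 of its bases are shared with MEG8 (ENSG00000225746, plus strand, chr14:100894770-101038859). MEG9 (ENSG00000223403, plus strand) follows at chr14:101042908-101072937 and DIO3 (ENSG00000197406, plus strand) at chr14:101560139-101563452. The library kit marks strand, but the strand setting of the read counting is not given in the sources used here, so reads of RTL1 and of RNA from the opposite strand there cannot be told apart.

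Promoter windows of 300 bases, from 250 bases before the gene start, were taken from RefSeq (GRCh38.p14) for the 4 members that have one there, MEG3, MEG9, RTL1 and DIO3, and those of the 3 members which moved together in HSP90α-KO are shown. They are MEG3 (plus strand, chr14:100825858-100826157, the first of 3 windows), MEG9 (plus strand, chr14:101069661-101069960) and RTL1 (minus strand, chr14:100903673-100903972), each written 5′ to 3′ with motif matches in capitals. RefSeq starts MEG3 and MEG9 within the spans given above.
MEG3: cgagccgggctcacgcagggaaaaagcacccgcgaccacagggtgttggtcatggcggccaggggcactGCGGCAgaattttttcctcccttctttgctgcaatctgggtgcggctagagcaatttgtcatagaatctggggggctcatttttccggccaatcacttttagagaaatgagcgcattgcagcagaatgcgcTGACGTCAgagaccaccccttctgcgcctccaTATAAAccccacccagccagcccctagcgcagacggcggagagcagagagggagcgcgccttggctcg
MEG9: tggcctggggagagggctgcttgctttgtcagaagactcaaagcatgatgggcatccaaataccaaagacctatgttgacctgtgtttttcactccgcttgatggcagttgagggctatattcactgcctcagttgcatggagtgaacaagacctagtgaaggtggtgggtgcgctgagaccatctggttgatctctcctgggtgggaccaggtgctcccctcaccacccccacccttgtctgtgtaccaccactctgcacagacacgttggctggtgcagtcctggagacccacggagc
RTL1: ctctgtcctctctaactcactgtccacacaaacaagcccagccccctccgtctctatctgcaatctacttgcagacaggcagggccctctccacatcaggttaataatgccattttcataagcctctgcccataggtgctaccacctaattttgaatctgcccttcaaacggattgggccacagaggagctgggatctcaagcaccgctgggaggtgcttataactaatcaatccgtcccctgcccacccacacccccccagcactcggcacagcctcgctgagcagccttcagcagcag
The MEG3 window holds the cyclic AMP response element TGACGTCA at position 201, which is 50 bases before the gene start, and this motif occurs in 1.85% of the 35116 RefSeq promoter windows. It also holds TATAAA at position 233 (11.5% of windows) and, at position 70, GCGGCA, the reverse strand of TGCCGC, the core motif of the imprint-protecting factor ZFP57 (16.7% of windows). A core of the CTCF motif was searched for as well and occurs in 0.0655% of windows. All motifs were searched on both strands, and none overlaps another in the MEG3 window. The MEG9 and RTL1 windows hold none of these 4 letter strings, and the DIO3 window holds TATAAA alone. CpG pairs number 19 in the MEG3 window, 28 in that of DIO3, 6 in that of RTL1 and 4 in that of MEG9, against a median of 14 over all windows.

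In EV, DLK1 was the most abundant member and MEG3 followed, whereas MEG8, MEG9 and RTL1 were rare. Per kilobase of merged exons, a length that joins all annotated isoforms, the level in EV was 136 ± 5.69 CPM per kb (SD, n = 3) for DLK1 and 9.19 ± 0.191 for MEG3. MEG8 (0.0573 ± 0.0163) and MEG9 (0.0571 ± 0.0173) did not differ beyond their spread, and RTL1 (0.0177 ± 0.0177) was the lowest. In HSP90α-KO, DLK1 stood at 97.9 ± 6.19 CPM per kb and MEG3 at 59.5 ± 0.516, with MEG8 (0.554 ± 0.0536), MEG9 (0.381 ± 0.0208) and RTL1 (0.190 ± 0.0429) below them in that order. In parental cells the order of the leading pair was the opposite, with MEG3 at 61.9 ± 0.704 CPM per kb and DLK1 at 29.9 ± 0.250, and MEG9 (1.48 ± 0.00400) exceeded MEG8 (0.650 ± 0.0215). In PUHr, DLK1 (91.8 ± 6.51 CPM per kb) was again above MEG3 (60.9 ± 0.952). Some of these orders rest on the exon lengths. By CPM, MEG3 was above DLK1 in HSP90α-KO (1382 against 514) and in PUHr (1414 against 482). MEG8 was likewise above MEG9 in parental cells by CPM (17.9 against 11.9).

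**Figure D1:**
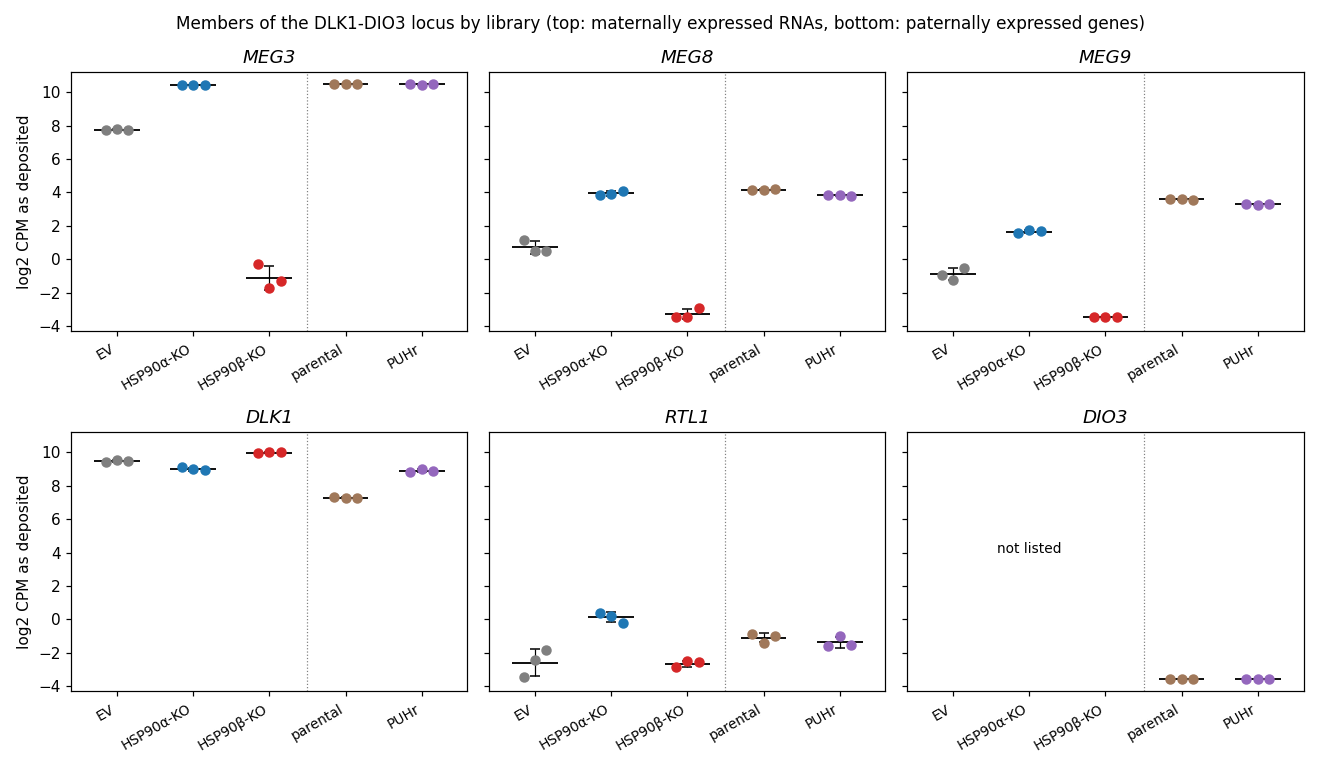
Deposited log2 CPM (y axis) of each member in the 3 libraries of each of the 5 groups (points), with the mean (line) and SD (bar); the dotted line separates the 2 tables, which were normalized separately, and values near -3.5 are libraries with 0 reads. MEG3, MEG8 and MEG9 rise from EV to HSP90α-KO and lie far below EV in HSP90β-KO, and DLK1 does the opposite on a smaller scale.

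The question of the first comparison was how the locus differs between cells without HSP90α and EV cells. The 3 maternally expressed RNAs were all higher in HSP90α-KO and DLK1 was lower. A gene was called when its adjusted p was under 0.05 and its change over 1 in log2 units (limma with Benjamini-Hochberg adjustment over 17039 genes), and 5.32% of all tested genes were called higher and 5.01% lower. MEG3 and MEG8 were called higher, and DLK1 was not called. MEG9 and RTL1 are given as reads without a p, because they met the filter on low values (in at least 3 libraries) only with the help of the HSP90α-KO libraries, where they were higher. Outside HSP90α-KO, MEG9 reached that limit in 2 libraries and RTL1 in 0. Of the other 3 members 2 were called higher, beside 3.61% of all tested genes that did not need their higher group to meet the filter. In MEG3, MEG8 and DLK1 the HSP90α-KO libraries lay entirely on one side of the EV libraries, as in 57.3% of all tested genes.

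MEG3 had 4436, 4534 and 5530 reads in the EV libraries and 28604, 26534 and 26818 in the HSP90α-KO libraries. No library came near the range of the other group, and within a group the levels were close, 213 ± 4.43 CPM in EV and 1382 ± 11.99 CPM in HSP90α-KO (SD, n = 3). The difference of 2.70 ± 0.17 in log2 units (SE, limma adjusted p = 3.5e-13) corresponds to a 6.48-fold higher level. This standard error also draws on the HSP90β-KO libraries, which were in the same fit. There MEG3 varied most, with an SD of 0.72 in log2 CPM, against 0.030 in EV and 0.0125 in HSP90α-KO. By reads, MEG3 ranked between 693 and 734 among the genes of the EV libraries and between 54 and 55 in HSP90α-KO.

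MEG8, a maternally expressed RNA that hosts small nucleolar RNAs, had 44, 27 and 35 reads in EV and 288, 285 and 329 in HSP90α-KO. Its groups were as clearly separated as those of MEG3, with a log2 fold change of 3.23 ± 0.22 (SE, limma adjusted p = 2.3e-12) and a ratio of 9.76 in depth-scaled reads (95% interval 7.98 to 12.1, counting error only). MEG9, the most distant of the 3 RNAs, had 9, 7 and 16 reads in EV and 59, 62 and 60 in HSP90α-KO. All HSP90α-KO libraries had more MEG9 reads than any EV library, with a read ratio of 6.49 (4.44 to 9.77) and a fitted log2 value of 2.55.

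DLK1, the paternally expressed neighbour of MEG3, had 14390, 15429 and 18585 reads in EV and 11239, 9793 and 9440 in HSP90α-KO. All 3 HSP90α-KO libraries were below EV, at 514 ± 32.5 CPM against 712 ± 29.9 CPM (SD, n = 3). The log2 fold change of -0.47 ± 0.036 (SE, limma adjusted p = 1.7e-11) passed the adjusted p but not the limit of 1, and 54.2% of all tested genes passed the adjusted p. RTL1, also paternally expressed, was not lower with DLK1. It had 0, 2 and 5 reads in EV and 25, 21 and 15 in HSP90α-KO, a read ratio of 10 (4.57 to 25.9) and a fitted log2 value of 2.71. The RTL1 reads moved with those of MEG3 and MEG8, and whether they come from RTL1 or from the opposite strand was not tested.

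HSP90β-KO was compared with the same 3 EV libraries as HSP90α-KO, so the contrasts are not independent. MEG3, MEG8 and MEG9 were almost without reads in HSP90β-KO and DLK1 was higher than in EV. MEG3 had 15, 5 and 8 reads in the HSP90β-KO libraries, or 0.415 ± 0.265 CPM (SD, n = 3). In depth-scaled reads EV was 530-fold above HSP90β-KO (95% interval 367 to 799, counting error only), and the fitted log2 fold change was -8.85 (standard error 0.17). By reads, MEG3 ranked between 693 and 734 in EV and between 14530 and 16880 in HSP90β-KO. The remaining reads were more than 3 in every HSP90β-KO library, so MEG3 was low but detected.

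MEG8 was left with 0, 0 and 1 reads in HSP90β-KO, where EV had 27 to 44. Its EV level was 109-fold above that of HSP90β-KO with a wide counting interval of 19.1 to 4329. MEG9 had 0 reads in all 3 HSP90β-KO libraries, where EV had 32 in all. With 3 reads allowed over the HSP90β-KO group EV would be 10.9-fold above it, and the exact 95% interval of the ratio, which also covers the counting error of EV, starts at 8.38. RTL1 had 1, 2 and 2 reads, within the EV range of 0 to 5, and at this depth a difference was not detectable (read ratio 0.697, 0.175 to 2.55). Over all tested genes of this contrast, 2.65% were called lower and 1.83% higher, and 34.4% passed the adjusted p alone. The members are not counted against these shares, since the contrast chose them.

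DLK1 moved against the RNAs in HSP90β-KO, with 20822, 23877 and 26301 reads and a level of 1018 ± 24.2 CPM (SD, n = 3), each library above all EV libraries (46.6% of all tested genes did not overlap between these groups). Its log2 fold change was 0.52 (standard error 0.036). Genes around the locus on 14q32 had similar values in this contrast. The median was 0.56 over 21 tested neighbours, beside 0.00 over all tested genes.

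MEG3 was on opposite sides of EV in the knockouts, and so were MEG8, MEG9 and DLK1, with no overlap among the libraries of the 3 groups for any of these 4. Of all tested genes, 7.63% had every HSP90α-KO library above and every HSP90β-KO library below EV, and 6.97% had the opposite order. Nothing is read from the count of 4, since HSP90β-KO chose the members. Of the reads that fell on the 6 members, MEG3, MEG8 and MEG9 together took 23.2 ± 0.485% in EV, 73.2 ± 1.11% in HSP90α-KO and 0.0424 ± 0.0265% in HSP90β-KO (SD, n = 3). The ratio of MEG3 to DLK1 reads, which needs no normalization, was 0.2999 ± 0.00748 in EV, 2.70 ± 0.148 in HSP90α-KO and 0.000411 ± 0.000272 in HSP90β-KO. The ratio did not overlap between EV and HSP90α-KO (two-sided exact permutation p = 0.1, the smallest that 3 against 3 allow).

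In the resistance table the question was whether the locus differs between PUHr and parental cells. Here DLK1 was the member that moved most, and MEG3 stood at a high level in both groups. DLK1 had 3740, 3742 and 3315 reads in parental cells and 11343, 12449 and 10554 in PUHr. Its level was 157 ± 1.31 CPM in parental cells and 482 ± 34.2 CPM in PUHr (SD, n = 3), and it rose by 1.62 ± 0.038 in log2 units (SE, limma adjusted p = 1.6e-13 over 16503 genes) or 3.07-fold. Beside it, 5.37% of all tested genes were called higher and 4.69% lower. RTL1 met the filter only with the parental libraries, where it was higher, and DLK1 was the 1 called of the other 4 tested members, beside 3.63% of all tested genes that did not need their higher group and were called higher.

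MEG3 had 34052, 34631 and 30278 reads in parental cells and 35683, 33239 and 31891 in PUHr, with levels of 1437 ± 16.3 and 1414 ± 22.1 CPM (SD, n = 3). The groups overlapped, and the log2 fold change was -0.02 ± 0.020 (SE, limma adjusted p = 0.33), but it was 0.18 (adjusted p = 1.2e-07) under quantile normalization and -0.07 (adjusted p = 0.024) with median centring, so no direction can be given for MEG3. MEG8 had 420, 414 and 395 reads in parental cells and 359, 343 and 313 in PUHr. MEG8 was lower by all libraries, with a log2 fold change of -0.33 ± 0.060 (SE, limma adjusted p = 0.00032), which is under the limit of 1. MEG9 behaved like MEG8, with 281, 283 and 252 reads in parental cells, 248, 223 and 216 in PUHr and a log2 fold change of -0.30 ± 0.071 (SE, limma adjusted p = 0.0027). In DLK1, MEG8 and MEG9 the libraries of the groups did not overlap, as in 58.5% of all tested genes.

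RTL1 stayed rare, with 11, 7 and 9 reads in parental cells and 6, 10 and 6 in PUHr, and no difference was detectable at this depth (read ratio 0.787, 95% interval 0.427 to 1.43). DIO3 had 0 reads in all 6 libraries, and so did its antisense RNA DIO3OS. A count of 0 allows up to 3 reads, or between 0.1205 and 0.1407 CPM in these libraries. DIO3OS overlaps DIO3 on the opposite strand.

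The share of member reads on MEG3, MEG8 and MEG9 was 90.3 ± 0.0771% in parental cells and 74.9 ± 1.62% in PUHr (SD, n = 3). With MEG3 nearly level, this lower share went with the higher DLK1. MEG3 reads per DLK1 read were 9.16 ± 0.0795 in parental cells and 2.95 ± 0.247 in PUHr (two-sided exact permutation p = 0.1, the smallest possible). The control groups of the 2 tables stood far apart, at 23.2% in EV and 90.3% in parental cells, a difference between tables that was not tested.

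**Figure D2:**
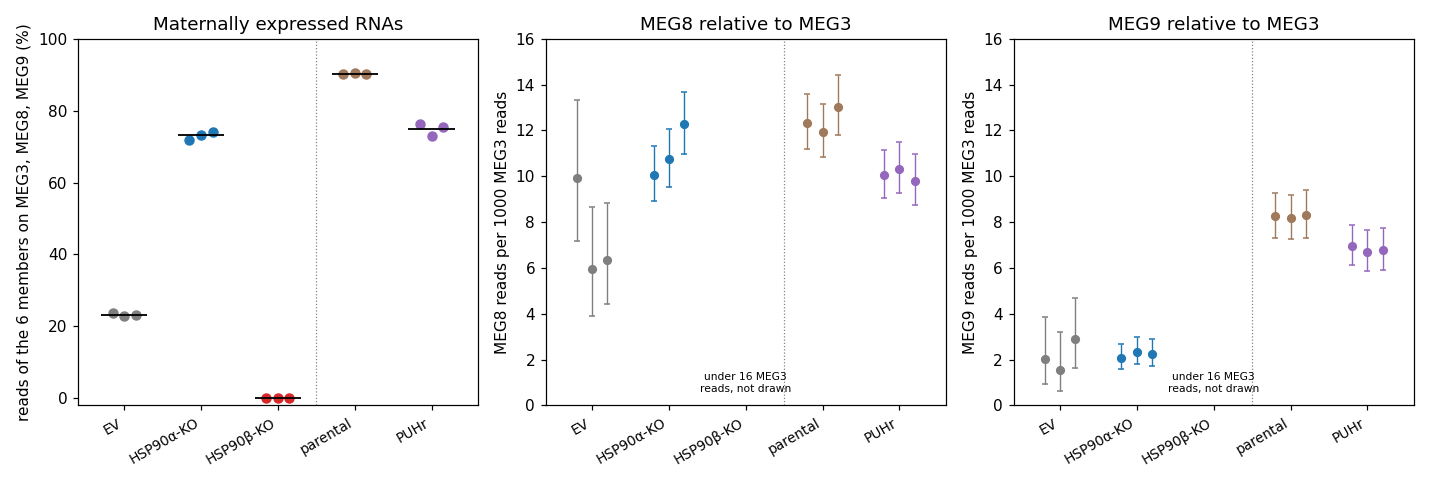
Percent of the reads on the 6 members that fell on MEG3, MEG8 and MEG9 (left), and MEG8 (middle) and MEG9 reads (right) per 1000 MEG3 reads, for each library (points); lines on the left are group means, bars in the other panels are exact 95% counting intervals, and HSP90β-KO is drawn only on the left since it had at most 15 MEG3 reads. The share is near 0 in HSP90β-KO, between 22.8 and 23.8% in EV and above 70% in HSP90α-KO and both resistance groups, and MEG9 per MEG3 is higher in the resistance table than in the knockout table.

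The proportions of the 3 maternally expressed RNAs were compared within libraries. Per 1000 MEG3 reads, MEG8 had 9.92, 5.96 and 6.33 reads in the EV libraries and 10.1, 10.7 and 12.3 in HSP90α-KO, so that all HSP90α-KO libraries were above EV (two-sided exact permutation p = 0.1, the smallest possible). MEG9 had 2.03, 1.54 and 2.89 per 1000 MEG3 reads in EV and 2.06, 2.34 and 2.24 in HSP90α-KO, with overlapping groups (exact permutation p = 0.9). In the resistance table both were higher against MEG3 in parental cells than in PUHr. MEG8 stood at 12.4 ± 0.554 per 1000 MEG3 reads in parental cells and 10.1 ± 0.252 in PUHr, and MEG9 at 8.25 ± 0.0756 and 6.81 ± 0.125 (SD, n = 3, exact permutation p = 0.1 for each, 4 such tests in all for these 2 RNAs). The MEG9 proportion in parental cells was above that in HSP90α-KO by counting intervals (7.69 to 8.83 against 1.90 to 2.56), although MEG3 itself was at a similar CPM in these groups, whose tables were normalized separately. This difference is between tables and was not tested.

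Small RNAs of the locus were barely seen in these libraries. The resistance table lists 126 features between DLK1 and DIO3, and the 120 that are not members had 176 reads in all over 6 libraries, of which 117 fell on 47 small nucleolar RNAs and 38 on 54 microRNAs. No read fell on 85 of the 120. SNORD113-3, a small nucleolar RNA within MEG8, had 7, 11 and 7 reads in parental cells and 15, 15 and 13 in PUHr. These counts do not overlap, and the fitted log2 value was 0.64. No p is given, since SNORD113-3 met the filter on low values only with the PUHr libraries, where it was higher. The knockout table lists none of the 120.

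Genes around the imprinted locus were compared to see how far the member values reach. Of 28 listed genes of 14q32 other than the members, 21 were tested in each table. DIO3OS, which overlaps DIO3, is among the 28 but was not tested. In HSP90α-KO none of the 21 was called (limma, 10 at an unadjusted p under 0.05, and 0 called by voom on reads), beside 10.3% of all tested genes, and their median log2 fold change was 0.08, beside -0.01 over all tested genes. WDR25 (-0.02, adjusted p = 0.85), BEGAIN (0.36, adjusted p = 0.0018), PPP2R5C (0.15, adjusted p = 0.0011) and DYNC1H1 (0.13, adjusted p = 0.00044) lie on either side of the members. All 21 had a higher value than DLK1, and the values of MEG3 and MEG8 were each above the highest of them, 0.51. Without that list, all 50 tested genes within 3 Mb on either side of MEG3 other than the members and HSP90AA1 had a median of -0.02, and 21 of them were above 0. Of these 50, 46 were above DLK1 and 4 below it, and 3 were called, again beside 10.3% of all tested genes. PPP1R13B (1.12) and LINC02323 (1.05) were higher and ENSG00000258919 (-1.58) was lower, all named after their values were seen. The values of MEG3 and MEG8 were also above the highest of the 50.

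In HSP90β-KO nearly all genes around the locus were higher by similar amounts. None of the 21 was called there either (limma, 20 at an unadjusted p under 0.05, and 0 called by voom, beside 4.48% of all tested genes), but 19 were higher at the adjusted p alone, where 17.2% of all tested genes were, and 1 was lower. Their median log2 fold change was 0.56, beside 0.00 over all tested genes. DYNC1H1 was at 224 ± 3.71 CPM in EV and 368 ± 2.19 CPM in HSP90β-KO (SD, n = 3, log2 fold change 0.72, limma adjusted p = 6e-17), and WDR25 (0.73, adjusted p = 4.9e-07), BEGAIN (0.61, adjusted p = 8.3e-06) and PPP2R5C (0.47, adjusted p = 3.4e-11) were higher as well. DLK1 with 0.52 lay within their range, above 9 and below 12 of them. Within 3 Mb on either side of MEG3, 45 of the 50 tested genes were above 0, with 28 above DLK1 and 22 below it, and 1 was called (ENSG00000258919, -1.45). HSP90AA1, not counted among the 50, was at 0.78 (adjusted p = 2.1e-17).

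In PUHr the neighbours had a median log2 fold change of 0.18, and by the adjusted p alone 11 were higher and 3 lower, where 25.6% and 25.8% of all tested genes were. DEGS2, a sphingolipid enzyme, was the 1 neighbour called, beside 10.1% of all tested genes, at -1.22 ± 0.12 (SE, limma adjusted p = 6.7e-07). BEGAIN, the listed neighbour nearest to DLK1, was higher by 0.82 (standard error 0.12, adjusted p = 4.4e-05), while WDR25 (0.08, adjusted p = 0.59) and PPP2R5C (-0.07, adjusted p = 0.066) did not pass. All 21 neighbours were below the DLK1 value of 1.62, as were all 45 tested genes within 3 Mb of MEG3, of which 35 were above 0. Of the 45, 3 were called (DEGS2, LINC00523 and ENSG00000258521), beside 10.1% of all tested genes. LINC00523 counts among them only through its higher PUHr libraries. LINC00523, a long non-coding RNA just before DLK1, was singled out after its values were seen. It had 4, 10 and 5 reads in parental cells and 29, 20 and 14 in PUHr, with a fitted log2 value of 1.44. No p is given for PUHr, since LINC00523 met the filter there only with the PUHr libraries. In the knockout table it had 32, 43 and 58 reads in EV, 47, 47 and 51 in HSP90α-KO (0.34, adjusted p = 0.17) and 32, 23 and 22 in HSP90β-KO (-0.76, adjusted p = 0.0051).

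**Figure D3:**
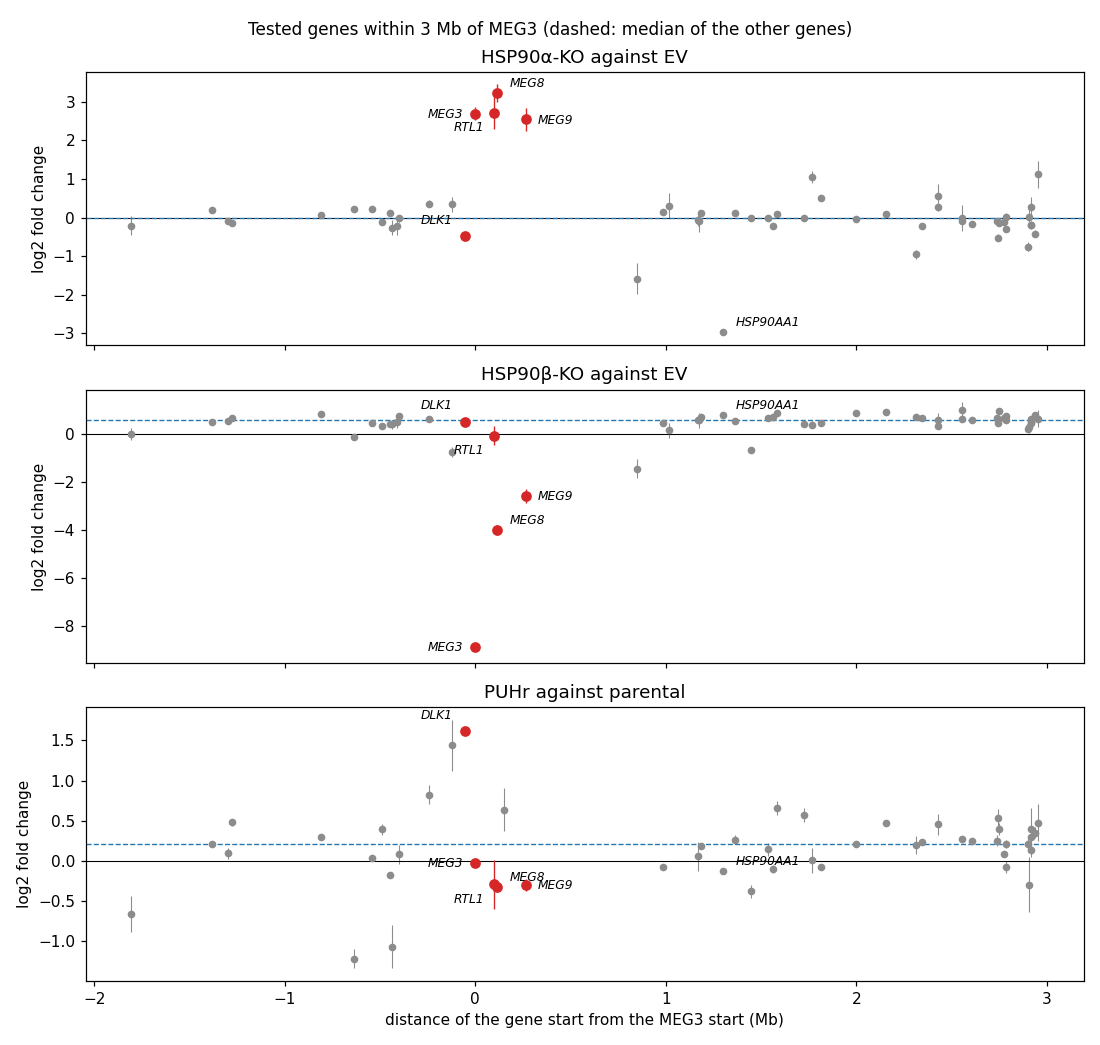
Log2 fold change (y axis, with standard error bars) of tested genes by distance of their annotated start from that of MEG3 in Mb (x axis), in the 3 comparisons; red points are members, grey points other genes, and the dashed line is the median of the grey points. MEG3 and MEG8 stand above their surroundings in HSP90α-KO, the RNAs stand below them in HSP90β-KO while DLK1 lies close to the dashed line at 0.57, and DLK1 stands out in PUHr.

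Imprinted genes on other chromosomes were set beside the members. Of 35 such genes, the knockout table allowed a test of 19 and the resistance table of 16. In HSP90α-KO 4 were called (limma, 10.3% of all tested genes were called), 2 higher and 2 lower. SNHG14 and ZDBF2 met the filter only with the group where they were higher and are given without a p. Among genes that did not need that group, 2 of 17 were called, beside 8.18% of all tested genes of that kind. The 2 were PLAGL1 and H19, and H19 met the filter only through the HSP90β-KO libraries, which are outside this comparison. The paternally expressed transcription factor PLAGL1 rose from 7.63 ± 0.667 to 46.2 ± 1.57 CPM (log2 fold change 2.59, adjusted p = 4.2e-21), and SNHG14, a paternally expressed host of small nucleolar RNAs, had 2 to 7 reads in EV and 13 to 15 in HSP90α-KO (fitted log2 value 1.65). H19, the maternally expressed RNA next to IGF2, had 2, 4 and 4 reads in EV and 0 in all HSP90α-KO libraries, where the exact 95% interval of the ratio of EV to HSP90α-KO starts at 1.95, and ZDBF2 had 14 to 20 reads in EV and 5 to 7 in HSP90α-KO (-1.12). The median of the 19 genes was -0.31. SNHG14 and ZDBF2 were too rare in this table for the naming rule and are given because the count is small. ZDBF2 and H19 dropped below the filter, and so out of the test, when any library of the group that carries them (EV and HSP90β-KO) was left out.

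H19 went the other way in HSP90β-KO, with 19, 22 and 40 reads, a read ratio to EV of 7.91 (4.09 to 17.1) and a fitted log2 value of 2.36. No p is given, since H19 is in the test only through its HSP90β-KO libraries. HSP90β-KO also had 4 of 19 called, 2 in each direction, beside 4.48% of all tested genes. Without genes that met the filter only with their higher group (H19 and ZDBF2 among those called), 2 of 16 were called, beside 3.61% of all tested genes of that kind. PLAGL1 was higher here too, at 17.6 ± 1.07 CPM (1.201, adjusted p = 1.7e-13), NDN, a paternally expressed growth suppressor, was lower (9 to 16 reads against 39 to 47, -1.80, adjusted p = 4.2e-07), and ZDBF2 was at -1.55. The median of the 19 genes was 0.06, and without EV replicate 1 SNHG14 passed as well (1.06, adjusted p = 0.034). PEG10, a paternally expressed retrotransposon-derived gene, had 7 to 8 reads in EV, 3 to 8 in HSP90α-KO and 12 to 14 in HSP90β-KO and was called in neither knockout. It met the filter only with the HSP90β-KO libraries.

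In PUHr 5 of 16 were called, 1 higher and 4 lower, beside 10.1% of all tested genes, and none of the 5 needed its higher group to meet the filter. Without PEG10, which did, 5 of 15 were called, beside 6.36% of all tested genes of that kind. The paternally expressed MEST fell from 74.5 ± 1.25 to 17.3 ± 1.06 CPM (log2 fold change -2.10, adjusted p = 1.2e-13), NDN fell by 2.42 (85 to 88 reads against 14 to 17, adjusted p = 2.6e-08) and ZDBF2 by 2.65 (78 to 102 reads against 12 to 14, adjusted p = 1.3e-08). The maternally expressed CDKN1C, a cell cycle inhibitor named here beyond the rule, had a log2 fold change of -1.07 (adjusted p = 0.0083) although its reads overlapped (56 to 81 against 23 to 64), and OSBPL5, maternally expressed in placenta, rose by 1.01 (adjusted p = 1.8e-08). Both were close to the limit of 1. Without parental replicate 2, CDKN1C (-0.98) and OSBPL5 (0.98) missed it and 3 genes were called, CDKN1C also missed it without PUHr replicate 1 (-0.81) or 3 (-0.88), and OSBPL5 without PUHr replicate 2 (0.99). KCNQ1OT1, a paternally expressed antisense RNA, was at 45.6 ± 1.23 CPM in parental cells and 86.2 ± 1.66 CPM in PUHr (0.92, adjusted p = 2.7e-11), just under the limit. The median of the 16 genes was -0.00. IGF2, PEG3, SNRPN and ZFP57 had at most 1 read in any resistance library and are not listed in the knockout table.

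**Figure D4:**
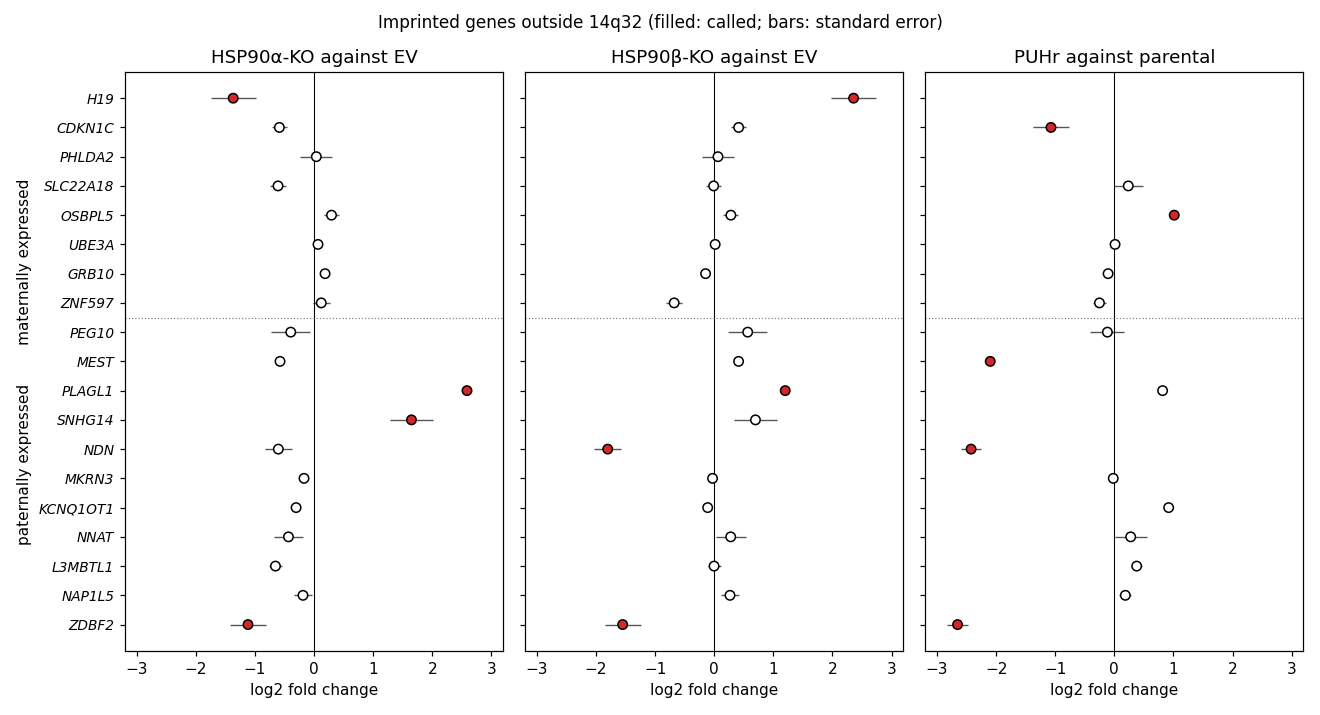
Log2 fold change (x axis, with standard error bars) of the tested imprinted genes outside 14q32 (y axis, maternally expressed genes above the dotted line) in the 3 comparisons; filled points passed both thresholds, and a gene without a point was not tested in that table. H19 is on opposite sides of 0 in the 2 knockouts, and ZDBF2 is below 0 in all 3 comparisons.

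Factors that read, write or protect imprints were described next. Of 22 such genes, 19 were tested in the knockout table, 1 was called in each knockout, beside 10.3% of all tested genes in HSP90α-KO and 4.48% in HSP90β-KO, and their medians were 0.12 in HSP90α-KO and -0.01 in HSP90β-KO. The called gene was ZFP42 (REX1), a zinc finger protein of pluripotent cells related to YY1. ZFP42 had 68 to 76 reads in EV, 1180 to 1263 in HSP90α-KO (log2 fold change 4.22, adjusted p = 2.6e-19, read ratio 19.2, 16.8 to 22.2) and 2 in each HSP90β-KO library, where EV was 37.2-fold above (16.8 to 103). ZFP42 was therefore on the same sides of EV as MEG3, as were 7.63% of all tested genes. TRIM28, which silences imprinted control regions with zinc finger proteins, moved little (0.10 with adjusted p = 0.023 in HSP90α-KO and 0.11 with adjusted p = 0.024 in HSP90β-KO), and ZNF445, another imprint-protecting zinc finger protein, was at -0.31 (adjusted p = 1.8e-07) and -0.08 (adjusted p = 0.15).

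The maintenance DNA methyltransferase DNMT1 was at 335 ± 12.4 CPM in EV, 356 ± 18.1 in HSP90α-KO and 337 ± 3.64 in HSP90β-KO. DNMT3A, a de novo methyltransferase, had log2 fold changes of -0.04 (adjusted p = 0.49) and -0.01 (adjusted p = 0.88), and DNMT3B had -0.22 (adjusted p = 1.2e-05) in HSP90α-KO and 0.23 (adjusted p = 1.9e-05) in HSP90β-KO. CTCF, which binds imprinted boundaries, was at 0.24 (adjusted p = 1.5e-05) and 0.05 (adjusted p = 0.36). In PUHr 3 of 20 were called, beside 10.1% of all tested genes. Among genes that did not need their higher group to meet the filter, which leaves out CTCFL and ZFP42, 1 of 18 was called, beside 6.36% of all tested genes of that kind. CTCFL, the germ-line paralog of CTCF, had 2317 to 2608 reads in parental cells and 1, 0 and 0 in PUHr, so that parental cells were 7729-fold above PUHr with a counting interval of 1387 to 305316. ZFP42 had 100 to 128 reads in parental cells and 2, 0 and 0 in PUHr (181-fold, 49.7 to 1499). AFF3, a transcription elongation factor, had 14 to 26 reads in parental cells and 1052 to 1148 in PUHr (log2 fold change 5.74, adjusted p = 6.5e-13). Because the filter asks for 3 libraries, CTCFL and ZFP42 were not tested when any parental library was left out. The median of the 20 genes was -0.02. MEG3 had at least 31891 reads in every PUHr library, and a link of CTCFL or ZFP42 to MEG3 was not tested. DNMT1 (-0.04, adjusted p = 0.16), DNMT3A (0.01, adjusted p = 0.93), CTCF (0.00, adjusted p = 0.99) and ZNF445 (-0.01, adjusted p = 0.78) did not pass, and TRIM28 (-0.18, adjusted p = 4.9e-06) and DNMT3B (-0.31, adjusted p = 1.1e-07) were slightly lower.

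The NOTCH pathway was listed because DLK1 is related to its ligands. In HSP90α-KO 4 of 18 tested genes were called, all higher, with a median of 0.21, beside 10.3% of all tested genes called in either direction and 5.32% called higher. Leaving out HEYL and NOTCH2, which met the filter only with the HSP90α-KO libraries, 3 of 16 were called higher, beside 3.61% of all tested genes of that kind. The receptor NOTCH1 rose from 37.7 ± 1.72 to 88.5 ± 4.002 CPM (log2 fold change 1.23, adjusted p = 7.3e-18) and NOTCH3 from 0.691 ± 0.0198 to 1.82 ± 0.293 CPM (1.28, adjusted p = 2.8e-05). The target HEY1 (50 to 67 reads against 128 to 153, 1.41, adjusted p = 1.4e-09) was higher as well. HEYL, another target, had 1 to 4 reads in EV and 35 to 51 in HSP90α-KO (fitted log2 value 3.47). NOTCH1 was named here beyond the rule of 3 genes. HEYL was not tested without any 1 of the HSP90α-KO libraries. The fitted value of NOTCH2 was over 1 without EV replicate 1 (1.17) or 3 (1.14) or HSP90α-KO replicate 2 (1.16), given as values alone because of the filter. DLK2, a paralog of DLK1, passed as lower without HSP90α-KO replicate 1 (-1.09). In HSP90β-KO none of the 18 was called (limma, 8 at an unadjusted p under 0.05, and 0 called by voom, beside 4.48% of all tested genes), with a median of 0.12, and NOTCH2 passed as lower without EV replicate 2 (-1.12). In PUHr 4 of 18 were called, beside 10.1% of all tested genes. They were NOTCH3 (2.12, adjusted p = 9.1e-10) and the ligand JAG1 (2.33, adjusted p = 2.7e-08) higher, and JAG2 (-1.97, adjusted p = 2.3e-10) and NOTCH2 (-1.04, adjusted p = 0.00026) lower, with a median of -0.03. NOTCH2 missed the limit of 1 without parental replicate 1 (-0.98) or PUHr replicate 1 (-0.88).

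Thyroid hormone genes were listed for DIO3 and p53 and TGFβ genes for MEG3. Of 8 tested thyroid hormone genes, SLC16A10, a transporter of thyroid hormone and aromatic amino acids, stood apart in HSP90α-KO, with 2, 0 and 2 reads in EV and 147, 159 and 165 in HSP90α-KO. No p is given, since it met the filter only through the HSP90α-KO libraries and was not tested when any of them was left out. None of the other 7 genes was called in HSP90α-KO (limma, 2 at an unadjusted p under 0.05, and 0 called by voom), beside 8.18% of all tested genes that did not need their higher group. The medians of the 8 genes were 0.00 in HSP90α-KO, -0.03 in HSP90β-KO and 0.42 in PUHr. In HSP90β-KO and PUHr none of the 8 was called (limma, 4 and 7 at an unadjusted p under 0.05, and 0 and 0 called by voom), beside 4.48% and 10.1% of all tested genes. Of the p53 and TGFβ genes, CDKN1A, the cell cycle inhibitor p21, was higher in both knockouts, which share EV, at 9.995 ± 0.498 CPM in HSP90α-KO (1.39, adjusted p = 2.2e-11) and 8.39 ± 0.610 CPM in HSP90β-KO (1.14, adjusted p = 2.7e-09) against 3.78 ± 0.562 CPM in EV. It was the 1 of 10 genes called in each knockout, beside 10.3% and 4.48% of all tested genes, with medians of 0.12 and 0.10. In PUHr the stress cytokine GDF15 was the 1 of 11 genes called, beside 10.1% of all tested genes, and the 1 of 10 without TGFB2, which met the filter only with its higher group (6.36% of all tested genes of that kind; 1.14, adjusted p = 1.9e-07, median of the list 0.20), and it missed the limit of 1 without PUHr replicate 2 (0.97).

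Genes with a profile like that of MEG3 were sought by Pearson's r over the libraries of each table, among genes with a range of at least 2 in log2 CPM. The values are a description, since the 9 knockout libraries fall into 3 groups of replicates and include the HSP90β-KO libraries that chose MEG3. Over them, the highest of 1566 genes were CA12 (r = 0.998), TMEM154 (0.997), CYRIA (0.996), RIN3 (0.996) and DLG3 (0.996). CA12, a membrane carbonic anhydrase, was at 6.11 CPM in EV, 10.4 in HSP90α-KO and 0.752 in HSP90β-KO, the same order as MEG3 with far smaller distances. Over the 6 resistance libraries MEG3 itself ranged over 0.06 in log2 CPM, and the nearest of 1005 genes, RPAP3-DT (r = 0.92) and 4 others down to 0.81, of which TBX10 (0.82) has a symbol, were at most 2.16 CPM on average in either group.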

How the data were processed

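Bulk RNA-seq of 15 K562 libraries was analysed from 2 tables of gene values. The authors used STAR with hg38 for alignment and featureCounts for gene counts, and deposited log2 CPM from edgeR that include a prior count (tools named in the submitters' processing notes and the methods). The versions are not given in the sources used here. Each deposited log2 CPM was turned back into whole reads, with a largest deviation of 0.0013 reads. Entries without an identifier (30 and 114, holding 0.027 to 0.036% of reads) were left out.

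Genes with log2 CPM of at least -1 in at least 3 libraries were tested with limma 3.58.1 (R 4.3.3, intensity trend) on the log2 CPM, 1 fit per table (17039 and 16503 genes), two-sided, with Benjamini-Hochberg adjustment over all of them. Genes that met this filter only with libraries of the group where they were higher are given without a p, and the counts of lists that hold such genes are also given without them. The counts of genes within 3 Mb of MEG3 were not split in this way. Calls needed an adjusted p under 0.05 together with a change over 1 or under -1 in log2 units. Fold changes on this scale understate changes of rare genes, so ratios of depth-scaled reads are given with exact 95% intervals, which cover counting error only, as does the limit of 3 reads that a count of 0 allows. Tables, figures and exact permutation tests were made with python 3.11.15, numpy 2.4.6, pandas 2.3.3, scipy 1.17.1 and matplotlib 3.10.9.

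The members and gene lists were chosen with earlier results of these data known. Named genes are the members, in each list and comparison the called genes with the largest changes (up to 3 in each direction, with a mean log2 CPM of at least 0 in the higher group), a set of imprint regulators, imprinted genes and neighbours given whether called or not, and the HSP90 genes. Genes like MEG3 were the 5 with the highest Pearson's r.

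Replicates of a group had r between 0.993 and 0.995 and differed beyond sampling noise (chi-square per degree of freedom 1.15 to 3.86), and none was merged. On simulated data with 16856 genes for HSP90α-KO against EV, 99 of 100 genes changed by 2.5-fold and 100 of 100 changed by 4-fold were recovered, with 2 unchanged genes called. Changes were planted only in genes with a mean above 2 CPM, and all genes were given the same fixed spread between replicates. The check therefore does not cover rarer genes of that table, such as MEG9, RTL1 and H19, or genes with a larger spread. Alternatives were other filters, added CPM, quantile normalization, median centring, no intensity trend, a replicate block, the 6 compared libraries alone, voom on the recovered reads, the adjusted p alone, and each library left out.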

Additional observations from a re-analysis of the deposited data

Results flagged for a closer look

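In 4 members all libraries of HSP90α-KO lay on one side of EV and all libraries of HSP90β-KO on the other, as in 7.63% of all tested genes with HSP90α-KO above EV and 6.97% with it below. The log2 fold change in HSP90α-KO less that in HSP90β-KO was 11.54 for MEG3, 7.23 for MEG8, 5.12 for MEG9 and -0.99 for DLK1. These differences were not tested, since HSP90β-KO values chose the members, and both contrasts use the same EV libraries.

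SNORD113-3, a small nucleolar RNA that lies within MEG8 and is neither a member nor in a gene list, had 43 reads in the 3 PUHr libraries and 25 in the 3 parental libraries.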

How the results depend on the processing

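Over 30 results and 554 alternatives, 495 were counted as the same and 59 were not. Tested members had to keep the direction and the side of the adjusted p threshold. Untested values had to stay close to the main value, and counts of genes within a fixed ratio of the main count. The limit of 1 in log2 units was not part of this comparison. In HSP90α-KO, MEG9 fell as low as 0.56 and RTL1 as low as 0.24 and were still counted as the same. MEG3 in PUHr was 0.18 (adjusted p = 1.2e-07) with quantile normalization, a reversed sign, and -0.0708 (adjusted p = 0.024) with median centring, and adjusted p over the other alternatives reached 0.88. Adding CPM shrank the MEG3 difference in HSP90β-KO to -7.26 (1 CPM) and -5.33 (5 CPM), and quantile normalization moved DLK1 there to 0.64. MEG8 and MEG9 in HSP90β-KO came to -5.63 and -4.47 by voom, and with 5 CPM added to -0.39 and -0.13. Both are at or near 0 reads in HSP90β-KO, and their EV levels of 1.58 and 0.458 CPM are below the 5 CPM added. Genes called in HSP90α-KO, HSP90β-KO and PUHr numbered 717, 272 and 751 with a mean log2 CPM of at least 1, 823, 289 and 941 with 1 CPM added, 346, 90 and 385 with 5 CPM added and 9230, 5864 and 8480 at the adjusted p alone. In the same order, neighbours at the adjusted p alone numbered 10, 20 and 14, and with 5 CPM added none was called in PUHr (0). Other imprinted genes numbered 1, 1 and 3 with the mean filter, 1, 1 and 3 with 1 CPM added, 1, 0 and 1 with 5 CPM added and 13, 8 and 9 at the adjusted p alone. Regulators and pathway genes called numbered 4 in HSP90α-KO with the mean filter, 1 in HSP90β-KO with 1 CPM added, 3, 0 and 5 with 5 CPM added and 43, 23 and 39 at the adjusted p alone. Leaving out each library gave 1541 to 1729, 706 to 742 and 1371 to 1484 called genes, 3 to 5 imprinted genes and 5 to 8 regulators and pathway genes in PUHr, and for MEG3 2.69 to 2.71 in HSP90α-KO and -9.25 to -8.54 in HSP90β-KO. DLK1 ranged from -0.52 to -0.43, from 0.49 to 0.55 and from 1.56 to 1.66 in the 3 comparisons. RTL1 in HSP90α-KO dropped below the filter without any HSP90α-KO library, was 2.26 to 3.08 without others, and was 0.24 with 5 CPM added. Same-numbered replicates did not deviate together (r between -0.048 and 0.045), and with a replicate block the MEG3 value in HSP90α-KO stayed at 2.70 (adjusted p = 3.3e-12), DLK1 in PUHr at 1.62 (adjusted p = 3.1e-15), and 1759, 763 and 1662 genes were called. Depth limits RTL1, MEG8 and MEG9 where they have few reads, and DIO3 throughout.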
